A study of Mus musculus with 4 samples.

Results

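The 4 Hox clusters hold the 38 Hox genes described here: 10 in HoxA, 10 in HoxB, 9 in HoxC and 9 in HoxD. Acetylation of histone H4 on lysine 16 (H4K16ac) over them was measured by ChIP-Seq in adult mouse liver. The members were taken by position, with 1 window for each cluster: chr6:52080001-52240000 for HoxA, chr11:96030001-96250000 for HoxB, chr15:102720001-102900000 for HoxC and chr2:74470001-74640000 for HoxD. The windows are 160, 220, 180 and 170 kb long and add up to 730 kb. Of 28377 islands of H4K16ac in the list of the SIRT1 KO mouse (MT), 1 lay in these windows, and of 26227 islands in the list of the wild type mouse (WT), 1 lay in them. An island is a stretch of the genome in which reads of the ChIP library exceed those of the input library (chromatin that was sequenced with no antibody step) after scaling for library size.

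The study asked whether loss of Sirt1 changes H4K16ac in liver. The deposited lists used here are from 1 MT and 1 WT mouse, each 3 months old and on a mixed 129/FVB/Black Swiss background, with 1 ChIP and 1 input library per mouse, so 4 libraries enter the lists. The study used more mice than these for ChIP-Seq, and the others were not analysed here. The study describes the MT allele as a targeted deletion of Sirt1 exons, and used a separate line for knockout in liver alone. The mice came from crosses of heterozygous parents. Most mice of the MT genotype die as embryos, so the adult MT mouse is a survivor. Both livers were taken in the morning after Avertin, snap frozen and precipitated with the same anti-H4K16ac antibody. With 1 mouse per genotype, a difference between the lists has no replicate check, no test was run between genotypes, and genotype and mouse cannot be told apart. The intervals given are 95% intervals and cover counting error only. The absence of SIRT1 and the identity of the tissue were not checked, because both need gene positions in the genome build of the lists, which is mm8 by the submitters' processing notes.

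Hox genes encode homeodomain transcription factors that give cells their position along the body axis and along the limbs. Their order along the chromosome follows the order in which they act from head to tail: the low-numbered genes act at the head end, and the high-numbered genes act at the tail end and in the limbs. In adult tissues many Hox genes are silent and lie in broad domains of Polycomb repression. H4K16ac, set mainly by the acetyltransferase MOF (Kat8) and removed by deacetylases that include SIRT1, loosens the packing of nucleosomes and is found at many active genes.

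The sequences next to the starts of the member genes show the kind of promoter the clusters carry. In RefSeq, on build GRCm38.p6, which is not the build of the lists, 22 of the 38 genes had a promoter entry, with 24 promoters in all. For each cluster the promoter with the most CpG pairs in the 250 bases before the start is shown 5′ to 3′ along the gene's strand, with each CpG pair in capitals. The Hoxa13 sequence, from the last gene of HoxA, is chr6:52260881-52261130 on the minus strand and holds 35 CpG pairs. The Hoxb4 sequence is chr11:96318017-96318266 on the plus strand and holds 14 pairs. The Hoxc4 sequence, from the HoxC gene that acts nearest the head and the single HoxC gene with an entry, is chr15:103034145-103034394 on the plus strand and holds 8 pairs. The Hoxd13 sequence, from a gene of digit formation, is chr2:74667975-74668224 on the plus strand and holds 31 pairs.
Hoxa13: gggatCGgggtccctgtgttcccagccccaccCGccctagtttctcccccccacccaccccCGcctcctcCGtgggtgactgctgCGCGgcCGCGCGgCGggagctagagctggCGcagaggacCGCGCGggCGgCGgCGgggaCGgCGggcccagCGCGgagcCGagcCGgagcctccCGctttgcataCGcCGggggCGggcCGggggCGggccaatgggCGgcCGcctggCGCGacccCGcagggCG
Hoxb4: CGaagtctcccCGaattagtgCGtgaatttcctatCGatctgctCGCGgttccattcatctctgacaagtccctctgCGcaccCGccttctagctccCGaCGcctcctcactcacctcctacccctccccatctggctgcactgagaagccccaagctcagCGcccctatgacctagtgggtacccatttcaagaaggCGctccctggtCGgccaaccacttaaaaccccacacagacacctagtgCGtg
Hoxc4: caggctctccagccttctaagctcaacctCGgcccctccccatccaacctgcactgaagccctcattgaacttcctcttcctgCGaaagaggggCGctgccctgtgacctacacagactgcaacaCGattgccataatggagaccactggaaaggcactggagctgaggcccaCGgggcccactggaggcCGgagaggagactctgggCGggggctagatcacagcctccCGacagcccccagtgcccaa
Hoxd13: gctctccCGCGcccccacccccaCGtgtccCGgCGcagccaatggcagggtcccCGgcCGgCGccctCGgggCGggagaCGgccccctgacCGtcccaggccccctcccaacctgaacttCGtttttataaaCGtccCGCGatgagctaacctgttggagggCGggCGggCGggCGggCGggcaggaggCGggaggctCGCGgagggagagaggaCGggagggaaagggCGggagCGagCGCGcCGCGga

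In the sequences shown, which were chosen for their CpG pairs, G and C made up 80.0% of the bases for Hoxa13, 74.4% for Hoxd13, 62.0% for Hoxc4 and 58.0% for Hoxb4. Over 300 bases, from 250 before to 50 after the start, the 24 Hox promoters had a median of 0.626 for the number of CpG pairs relative to that expected from their C and G content. The median over all 32851 mouse promoters was 0.384. Values above 0.6 were found in 12 of the 24, against 35.8% of all promoters. Hoxa5, which acts in lung and vertebral patterning, had the highest value at 1.02, and 1 of the 2 promoters of Hoxd11 had the lowest at 0.257. HoxA promoters had a median of 0.722 (10 promoters) and HoxD promoters 0.664 (10 promoters), with 0.593 for the 3 HoxB promoters and 0.333 for Hoxc4. The letters CACGTG, the core of the E-box that clock factors bind, were read on both strands and occurred in 5 of the 24 promoters (20.8%), against 7.15% of all promoters of this length. All 5 were in HoxD, at Hoxd1, Hoxd4, Hoxd10, Hoxd11 and Hoxd13. The letters TATAAA occurred in 4 of the 24 (16.7%), against 13.6% of all promoters. These matches describe letters in the sequence, and binding was not measured.

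**Figure D1:**
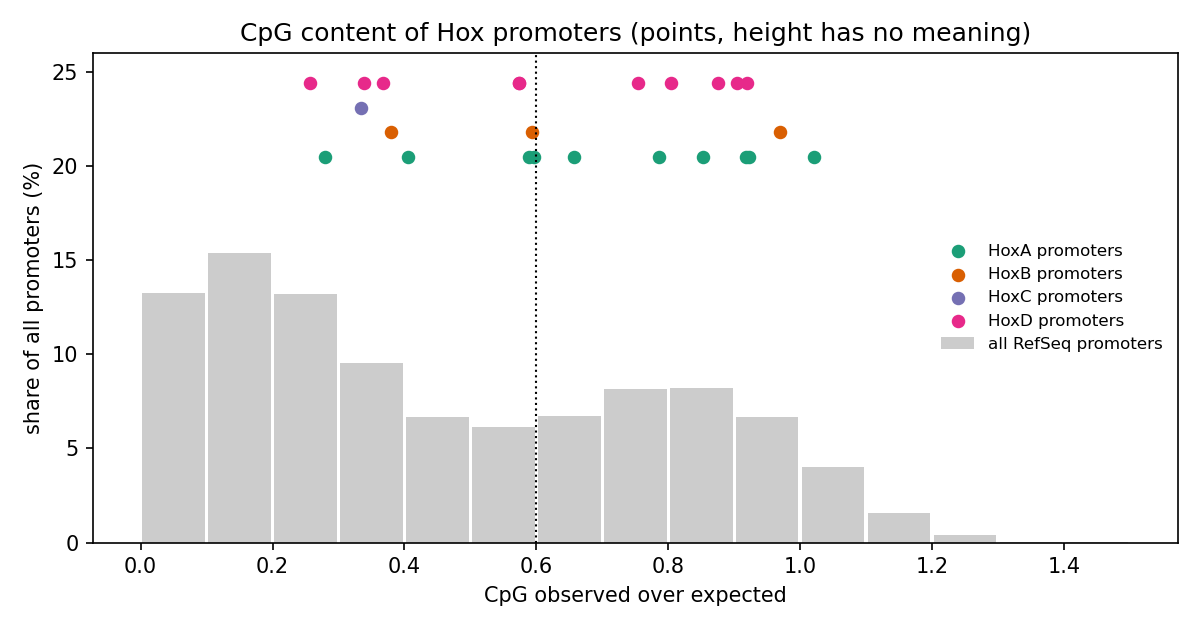
CpG pairs relative to the number expected (x axis) for all RefSeq promoters as a histogram (y axis, % of promoters) and for the 24 Hox promoters as points by cluster, whose height has no meaning. The dotted line marks 0.6, above which 12 of the 24 Hox promoters and 35.8% of all promoters lay.

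The clusters are packed with genes. In RefSeq the members spanned 98.5 kb in HoxA, 173.9 kb in HoxB, 115.7 kb in HoxC and 96.9 kb in HoxD, which gave 7.83 members per 100 kb, against 0.822 protein-coding genes per 100 kb over 20 chromosomes. Whether the windows hold the clusters in the coordinates of the lists was checked by sliding the CpG-rich gene starts around each cluster along the islands and taking the placement with the most starts in an island. The best placement put 32.9% of 79 starts in islands around HoxA, 49.3% of 140 around HoxB, 46.7% of 92 around HoxC and 39.7% of 78 around HoxD. The next separate placement put 19.2 to 22.1% there. At the best placement 36 of the 38 genes lay wholly inside the windows, with Hoxb13 and Hoxd13, the genes of their clusters that act nearest the tail, not wholly inside. Hoxd13, whose promoter is among those shown, reached 1.18 kb before the HoxD window, and Hoxb13 began 19.3 kb before the HoxB window. Windows lengthened by 50 kb on each side held all 10 HoxB and all 9 HoxD genes at this placement. The placement is approximate, and no island was assigned to a single gene.

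The HoxA and HoxC windows held no island in either list. In HoxB there was 1 island, in MT, and in HoxD there was 1 island, in WT, and neither had a counterpart in the other genotype. Islands covered 1.8 kb of the 730 kb in MT (0.247%) and 1.6 kb in WT (0.219%). Thus 3 of the 4 windows were free of islands in each list. A window free of islands is common in this genome: of all windows as long as HoxA, 60.1% held no island in MT and 60.1% in WT. The shares were 55.3% and 54.8% for the length of HoxB, 58.4% and 58.0% for HoxC, and 59.0% and 59.0% for HoxD. Windows as long as HoxB were covered no more than HoxB in MT in 59.4% of cases, and windows as long as HoxD no more than HoxD in WT in 63.3%. These shares count the sequence before the first island of each chromosome, which holds none by definition and raises them. Read against these shares, a window without islands does not by itself set a Hox cluster apart from the rest of the genome. The lists hold islands past a threshold alone, so 0 islands is not 0 acetylation, and the depth of the lists gives no upper limit for the level inside the windows.

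**Figure D2:**
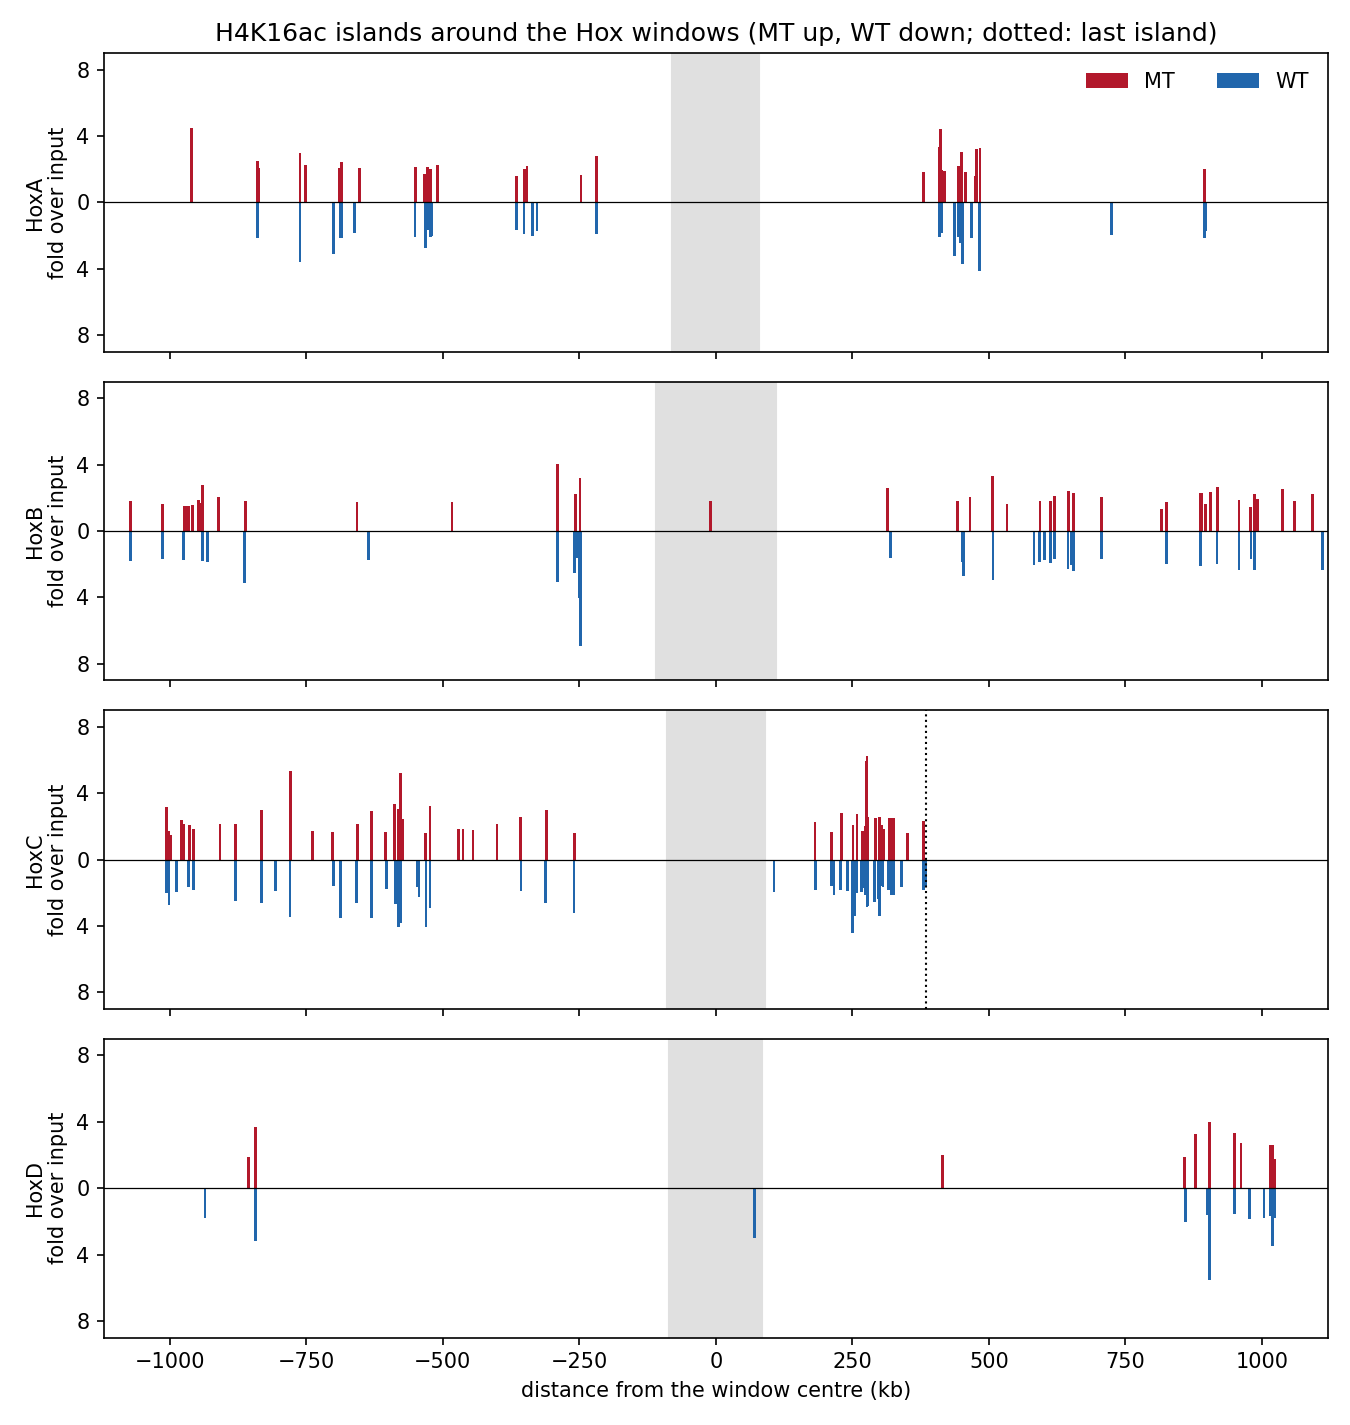
Islands of MT (upward) and WT (downward) within 1 Mb of each Hox window, with the distance from the window centre on the x axis (kb) and the fold of ChIP over scaled input on the y axis. The windows are grey, bars are drawn at least 5 kb wide so that short islands can be seen, and the dotted line marks the last island of chromosome 15. The grey areas hold 1 MT island in HoxB and 1 WT island in HoxD.

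The MT island of HoxB was at chr11:96130001-96131800, 118.2 kb before the end of the window and close to its middle. At the best placement it lay between Hoxb13 and Hoxb1, the outermost HoxB genes, 119.3 kb after the start of the span and 54.7 kb before its end. It was 1800 bp long and held 53 ChIP reads (39.7 to 69.3) and 28 input reads, a fold of 1.79 (1.11 to 2.94) over scaled input and 29.4 ChIP reads per kb. The authors' false discovery rate for it was 8.36e-05. It was a modest island within its list: 30.4% of MT islands had a lower fold, 27.2% had fewer ChIP reads and 26.6% were shorter. The nearest WT island, at chr11:95892201-95893000, lay 237.0 kb away and outside the window. At an equal level in WT, 50.6 ChIP reads would be expected over this stretch at the depth of the WT library, and up to 47 would miss the threshold of the WT list if the input had the same density. The WT reads over this stretch are not in the list, and the difference between the genotypes was not tested.

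The WT island of the HoxD window was at chr2:74625401-74627000, 155.4 kb after the start of the window and 13.0 kb before its end. At the best placement it started 59.7 kb past Hoxd1, the last HoxD gene on that side, and so lay in the window but outside the HoxD genes. It was 1600 bp long and held 59 ChIP reads (44.9 to 76.1) and 18 input reads, a fold of 2.98 (1.73 to 5.37) and 36.9 ChIP reads per kb. The authors' false discovery rate for it was 2.35e-12. Its fold was high within its list, with 85.8% of WT islands lower, while 44.2% had fewer ChIP reads and 26.4% were shorter. The nearest MT island, at chr2:74969201-74971200, lay 342.2 kb away. At an equal level in MT, 61.7 ChIP reads would be expected over this stretch, and up to 37 would miss the threshold if the input had the same density. That number lies below the counting interval of the WT island, 44.9 to 76.1, but the island is listed because its reads were many, and the difference was not tested. The intervals of the 2 folds, 1.11 to 2.94 in HoxB and 1.73 to 5.37 in HoxD, overlap. An island found in 1 list alone is common: 43.5% of MT islands and 35.7% of WT islands had no island of the other list on them.

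The sequence on both sides of the windows held many more islands. The flanks reach 1 Mb from each window, except above HoxC. There the last island of the chromosome in either list ends 294.8 kb past the window, and the flank was ended at it, which leaves 7.29 Mb in all. Any sequence past that island holds none, so leaving it out can only raise the covered shares and island densities of the flanks. The flanks held 124 islands in MT and 117 in WT, which is 17.0 and 16.04 islands per Mb, against 1.37 per Mb in the windows of each list. Islands covered 5.15% of the flanks in MT and 3.87% in WT, 20.9 times and 17.6 times the share covered in the windows. When the flanks were cut into pieces as long as their own Hox window, 10 of 36 pieces held no island in MT (27.8%) and 13 of 36 in WT (36.1%). The share of island-free pieces in the flanks was thus lower than the 54.8 to 60.1% of the genome, while 3 of the 4 Hox windows held none. The genome shares include the sequence before the first island of each chromosome, and the HoxC flank leaves out any past the last one. With 4 windows and 1 library per genotype this contrast is a description.

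The flanks differed among the clusters. The flanks of HoxC were the densest, with 46 islands in MT and 48 in WT over 1.29 Mb, and 11.1% and 9.39% of their length was covered. Above HoxC 18.2% of 294.8 kb was covered in both genotypes, by 17 islands in MT and 24 in WT. This flank ends at the last island, which can only raise that share. The flanks of HoxB held 38 islands in MT and 32 in WT, and 5.92% and 3.67% was covered. The flanks of HoxA held 30 and 26 islands, with 4.05% and 2.98% covered. HoxD lay in the sparsest region, with 10 islands in MT and 11 in WT and 1.62% and 1.37% covered. Of 10 flank pieces as long as the HoxD window, 7 held no island in MT and 8 in WT. Around HoxC none of 6 did in either genotype, with no piece counted past the last island, and around HoxB 0 of 8 in MT and 1 of 8 in WT. Around HoxA 3 of 12 did in MT and 4 of 12 in WT. All 4 windows had islands on both sides. The HoxD window was thus free or nearly free of islands in a region that was itself poor in them, whereas the HoxB and HoxC windows stood in regions with more islands.

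**Figure D3:**
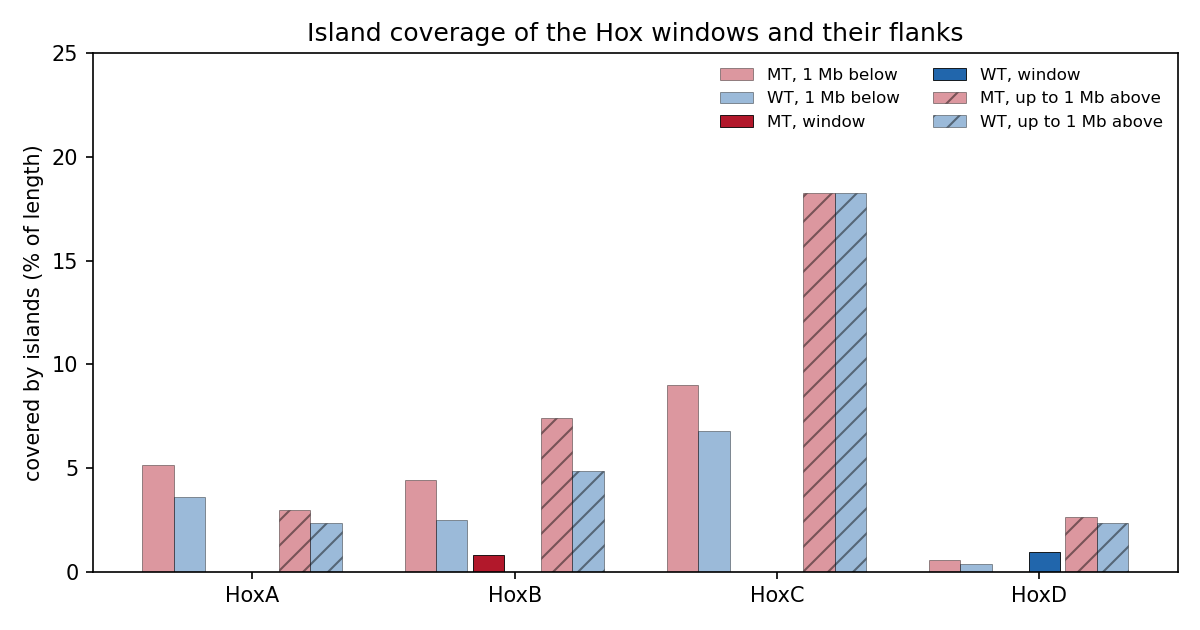
Share of length covered by islands (y axis, %) in the 1 Mb below, in the window and in up to 1 Mb above each Hox window, for MT and WT. In the windows there are bars for HoxB in MT (0.818%) and HoxD in WT (0.941%), and the highest bars are those above HoxC (18.2%).

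The islands nearest to each window show where H4K16ac was first listed again. Below HoxA they were at chr6:51941401-51943000 in MT (65 ChIP and 22 input reads, a fold of 2.80) and at chr6:51940801-51943800 in WT (73 and 35 reads, 1.90), 137.0 and 136.2 kb from the window. These islands overlap. Above HoxA the nearest MT island, at 299.8 kb, had a fold of 1.86, and the nearest WT island, at 329.0 kb, a fold of 2.10. Below HoxB the islands nearest the window again overlapped, at chr11:95889801-95893000 in MT (145 and 43 reads, 3.19) and chr11:95892201-95893000 in WT (38 and 5 reads, 6.91), both 137.0 kb away. Above HoxB the nearest islands were at 203.4 kb in MT, with a fold of 2.58, and at 207.6 kb in WT, with a fold of 1.63, and each was found in its own list alone.

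Below HoxC overlapping islands began at chr15:102549801 in both lists and ended 167.8 kb from the window in MT (67 and 39 reads, 1.63) and 169.0 kb from it in WT (50 and 14 reads, 3.25). Above HoxC a WT island of 32 ChIP and 15 input reads, found in WT alone, lay 16.2 kb from the window at chr15:102916201-102917200, with a fold of 1.94. It was the flank island closest to any of the 4 windows. The nearest MT island on that side, at chr15:102990001-102993600, held 109 and 46 reads, a fold of 2.24, at 90.0 kb. Around HoxD the distances were the greatest: 756.6 kb below in MT (102 and 26 reads, 3.71) and 756.0 kb in WT (111 and 32 reads, 3.15), in overlapping islands. Above HoxD an island of MT alone lay at 329.2 kb (53 and 25 reads, 2.01), and the nearest WT island lay at 772.4 kb (125 and 56 reads, 2.03).

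The islands with the most ChIP reads in the flanks were far larger than the 2 inside the windows. They are the extremes of 124 flank islands in MT and 117 in WT, set against 1 window island per list. The median island of the whole list had 74 ChIP reads and 2400 bp in MT, and 63 reads and 2200 bp in WT. Around HoxC the same region held the most reads in both genotypes, at chr15:103124801-103139000 in MT (14200 bp, 518 ChIP and 194 input reads, a fold of 2.53) and chr15:103128601-103137800 in WT (9200 bp, 311 and 134 reads, 2.11). Around HoxB the MT list had its largest at chr11:95165001-95177600 (12600 bp, 386 and 239 reads, 1.53). In WT it was at chr11:96791801-96797400 (222 and 83 reads, 2.43), while the longest reached 6600 bp at chr11:96749401-96756000. Around HoxD the largest MT island, at chr2:75567401-75576200, held 284 ChIP and 104 input reads over 8800 bp (2.59), and the WT island with the most reads, at chr2:75457001-75459800, held 176 and 29 (5.52). The longest WT island there, of 4000 bp, was the nearest one above the window. Around HoxA the most reads were 223 in MT, at chr6:51608001-51613800, and 260 in WT, at chr6:51470001-51477200, and the longest islands were 6000 bp at chr6:51806401-51812400 in MT and 7200 bp, again the one with the most reads, in WT.

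Each window lay in a long stretch without islands. In MT the stretch around HoxA was 596.8 kb long, that around HoxC 437.8 kb and that around HoxD 1255.8 kb, while the island in HoxB parted stretches of 237.0 and 321.6 kb. In WT the stretches were 625.2 kb at HoxA, 564.6 kb at HoxB and 365.2 kb at HoxC, and the island in HoxD parted stretches of 911.4 and 785.4 kb. The median stretch between neighbouring islands was 10.8 kb in MT and 13.0 kb in WT. All of these stretches were longer than at least 93.7% of the stretches of their list, with the 1255.8 kb at HoxD longer than 98.7%. Part of this restates that the windows were empty, since a window without islands lies in a stretch at least as long as itself. The same stretches are less unusual by length of genome: stretches at least as long as each of them made up between 41.0 and 71.8% of all the length between islands. A point of the genome chosen at random thus often falls in one as long. The longest stretches were 15919.8 kb in MT and 18477.4 kb in WT.

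**Figure D4:**
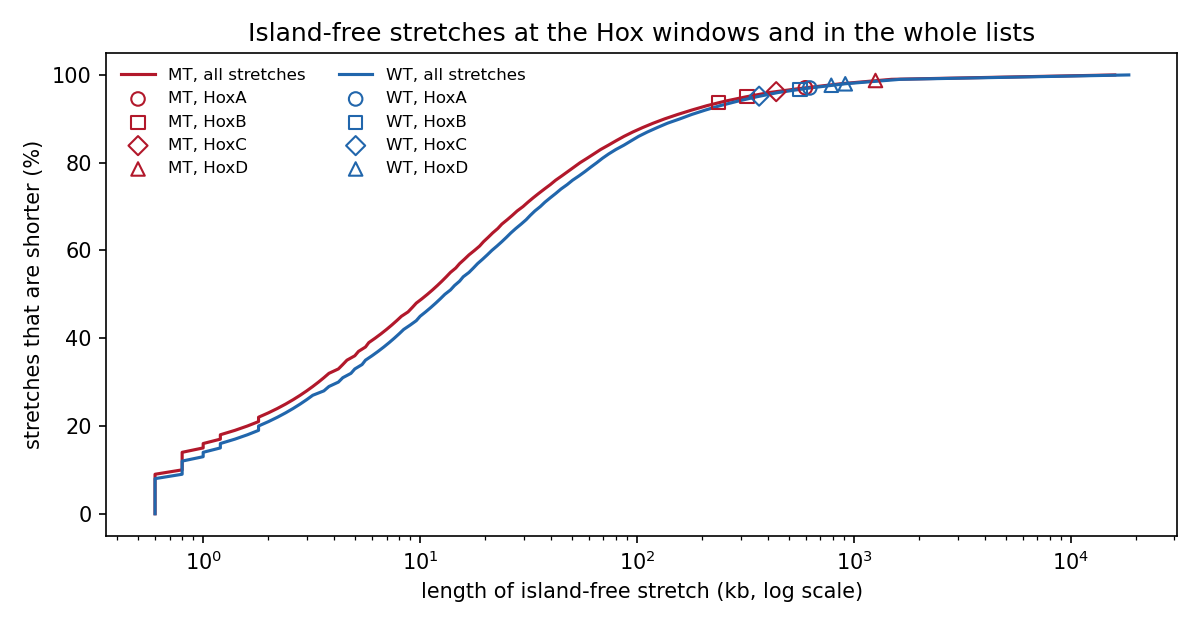
Share of island-free stretches that are shorter (y axis, %) against stretch length (x axis, kb, log scale), for the MT and WT lists as lines and for the stretches at the 4 Hox windows as points. The Hox points run from 237.0 kb at HoxB to 1255.8 kb at HoxD in MT and all lie above 93% of the stretches of their list.

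In the flanks, MT and WT were compared where both lists had an island, since the windows have no such region. Of the flank islands, 79 of 124 in MT (63.7%, exact binomial interval 54.6 to 72.2) and 82 of 117 in WT (70.1%, 60.9 to 78.2) overlapped an island of the other list. Islands covered 1.33 times as much of the flanks in MT as in WT, against 1.25 times over the whole lists. The ratio was 1.61 around HoxB, 1.36 around HoxA, 1.18 around HoxC and 1.18 around HoxD. In the 75 shared regions of the flanks, the log2 ratio of MT to WT ChIP reads per covered kb was 0.03 (−0.01 to 0.07), and that of the input reads was 0.00 (−0.07 to 0.07). The ratio over all 14719 shared regions of the genome was −0.01. By cluster the ChIP ratio was 0.04 (−0.06 to 0.14, 16 regions) around HoxA, 0.03 (−0.06 to 0.11, 22 regions) around HoxB, 0.05 (−0.02 to 0.11, 32 regions) around HoxC and −0.06 (−0.20 to 0.09, 5 regions) around HoxD. All of these intervals hold 0. In the 5 regions around HoxD the input ratio was −0.29 (−0.54 to −0.05), so ChIP and input there are not at the same scale. The ChIP reads were higher in MT in 39 of the 75 regions (52.0%), against 48.5% of all shared regions. The direction depends on the scaling: the ratio was −0.27 with the ChIP totals over all islands set equal, and 0.35 with reads per region not divided by length. The lists thus covered more of the flanks in MT, while the density of reads where both had an island differed by no more than counting error under the scaling by input.

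The enrichment of ChIP over scaled input, summed over the islands of the flanks, was 2.20 (2.13 to 2.27) in MT and 2.18 (2.10 to 2.26) in WT. It was 2.22 and 2.18 around HoxA, 1.97 and 2.08 around HoxB, 2.30 and 2.23 around HoxC, and 2.70 (2.41 to 3.03) and 2.23 (1.97 to 2.52) around HoxD. The fold of 1.79 of the MT island in HoxB and that of 2.98 of the WT island in HoxD had intervals that hold the values of their own flanks, 1.97 and 2.23. With distance, the counts of islands differed by cluster. Within 250 kb of the windows lay 17 islands in MT and 24 in WT around HoxC, 4 and 6 around HoxB, 2 and 2 around HoxA, and 0 and 0 around HoxD. From 250 to 500 kb lay 19 and 16 around HoxA and 1 and 0 around HoxD. From 750 to 1000 kb lay 9 and 11 around HoxD, which was all but 1 of its flank islands in MT and all of them in WT.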

How the data were processed

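The authors deposited 1 list of islands per mouse. By the submitters' processing notes reads were mapped to mm8 with Bowtie 0.12.7 and islands were called with SICER 1.03. List titles state that duplicates had been dropped, with windows of 200 bp, gaps of at most 400 bp and a false discovery rate of 0.001. The deposited counts of an island are its ChIP and input reads, the authors' p-value tests the ChIP reads against scaled input, and the authors' fold is their ratio after scaling for library size. Total reads per library were not used here. The median island had 74 ChIP reads in MT and 63 in WT.

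Coverage, overlap (at least 1 bp) and island-free stretches were computed in scipy 1.17.1, pandas 2.3.3 and numpy 2.4.6 under Python 3.11.15 and tested on simulated data. Libraries were scaled by input reads per covered kb in all shared regions (MT over WT: input 1.09, ChIP 1.05). Intervals are exact Poisson for reads, exact binomial for shares, and conditional on the sum of reads for ratios. Background windows tile each chromosome from its first base to its last island, so they include the sequence before its first island. Members and lists were chosen with earlier results of these data known. Islands named are those in the windows, the nearest ones, those with the most ChIP reads and the longest per cluster. Not every island found in 1 list alone is named. The flank above HoxC was ended at the last island after the data were seen. The windows were given as mm9 coordinates and used as they stand on the lists. Alternatives are named in the closing part.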

Additional observations from a re-analysis of the deposited data

How the results depend on the processing

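Of 130 values recomputed under alternatives, 112 lay within a set range of the reported value and 18 lay outside. The range was the 95% interval, or within 1.5 times for counts of islands and the covered length in the flanks. For covered shares and their ratio to the flanks, the interval counted each 200 bp stretch as independent. Neighbouring stretches lie in 1 island, so this interval is a yardstick and not a sampling error. Many of the 112 had little or no room to move. A window without islands stays at 0 under stricter filters, and the overlap share of 1 island has an interval of 0 to 97.5%. The fold over input repeats wherever the same island is kept. The windows stayed less covered than the flanks under every alternative for which both shares were compared. The 2 islands in the windows decided most of the 18. With a false discovery rate of at most 1e-05, with a fold of at least 2, or without HoxB, the MT windows held 0 islands, covered 0%, at 0 times the share of the flanks, and HoxB itself was at 0% under the first 2. Without HoxD the WT windows held 0 islands, covered 0%, at 0 times the flanks. Leaving out HoxA or HoxC changed neither count. With windows 50 kb longer on each side the WT windows held 2 islands, the second being the one 16.2 kb above HoxC, which put the HoxC window at 0.357% in WT. These longer windows also gave 0.159% for all 4 windows in MT (0.0304 times the flanks) and 0.593% for HoxD in WT, and a fold of at least 2 gave 0.107 times the flanks in WT, all within those intervals though over 1.5 times from the reported values. The log2 ratio of MT to WT ChIP reads per covered kb in shared flank regions, reported as 0.03, was 0.082 when islands had to share 50% of their length, −0.27, with a change of sign, with equal ChIP totals over all islands, and 0.35 per region without division by length. All alternatives for the flank ratios and for the count of islands were chosen after seeing the data, and the cause of these moves was not tested. Without 1 cluster the covered share of the windows over that of the flanks ran between 0 and 0.0847 for MT and between 0 and 0.109 for WT (0.0479 and 0.0567 with all 4), with both highest values reached without HoxC, and the ratio of covered length in the flanks ran from 1.23 to 1.45. The ChIP and input ratios of shared regions inside the windows have no value under any setting, because no such region exists. No paired analysis was possible because each genotype has 1 mouse and no test was run between them. The lists carry no reads outside islands, so they set no limit on the level inside the windows.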
